A study of Mus musculus with 18 samples.

Results

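The comparison described here is that of Dnmt1 KO with control mouse embryonic stem cells at day 11, the last day sampled. It was chosen by the labels alone, which assign 2 Dnmt1 KO and 2 control libraries to that day, 4 of the 18 whole-genome bisulfite libraries of the series. The series sampled both genotypes at days 1, 3, 6, 9 and 11 after Dnmt1 deletion. Controls carry the genotype label Wildtype, and all 4 libraries carry the strain label E14, an embryonic stem cell line, and the cell type label ESC. By the study's methods, deletion was induced by tamoxifen-activated Cre in embryonic stem cells with loxP sites in both Dnmt1 alleles, of a C57BL/6 line, grown in serum with LIF, so the strain label and the methods differ. Whether the controls are the same line without tamoxifen is not settled by the sources used here, nor whether the replicates are separate cultures, so the p-values measure only the spread between these libraries.

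DNMT1 is the maintenance methyltransferase: after replication it restores the methyl group on the new strand of a CpG whose old strand carries one. UHRF1 brings it to such half-methylated sites. DNMT3A and DNMT3B, with their cofactor DNMT3L in embryonic stem cells, methylate CpGs without a template, and the TET enzymes oxidise methyl groups. In cells that divide without DNMT1, methylation laid down earlier is diluted, and what remains in the DNA depends on the older marks and on enzymes that need no template. Mammalian CpG islands, stretches rich in CpGs that often lie at gene starts, are mostly free of methylation in embryonic stem cells.

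The 4 libraries held 8958853 to 9829215 methylation calls, against 7190722 to 11158414 over the series, where 1 call is the state of 1 cytosine in 1 read. Each covered cytosine carried 1.22 to 1.24 calls, and 1.05% to 1.27% of them had at least 3, so few single CpGs were measured and levels below are the percent of methylated calls summed over the CpGs of a class, window or gene. At single gene starts they can rest on as few as 5 calls. Intervals given for shares of calls cover counting error only. Within Dnmt1 (ENSMUSG00000004099.8, chr9:20711650-20757317 on the minus strand, NCBIM37 build), 40 consecutive CpGs between positions 20743813 and 20745970 had 0 calls in both Dnmt1 KO libraries, and 25 and 8 calls in the controls. That stretch was picked for having no call in 5 libraries, those of Dnmt1 KO at days 6, 9 and 11. The rest of the gene had 306 and 385 calls in Dnmt1 KO and 325 and 349 in control. The libraries labelled Dnmt1 KO thus lacked reads from one stretch inside the targeted gene that both control libraries covered.

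Dnmt1 KO cells at day 11 kept 24.5% of their autosomal CpG calls methylated. The levels were 24.2% and 24.7% in Dnmt1 KO (24.5% ± 0.364, SD, n = 2) and 71.4% and 71.5% in control (71.4% ± 0.0491, SD, n = 2). The difference of -46.9 points was far larger than the spread between replicates. The exact two-sided permutation test of 2 against 2 libraries cannot go below p = 0.33, which is the value it gave. The residual level was 34.3% of the control level.

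A small set of cytosines with more than 20 calls carried much of the signal of 2 chromosomes and of the gene starts. They held 7.24% to 8.05% of autosomal calls, but 41.3% to 44.2% of those on chromosome 2, 29.96% to 32.5% on chromosome 9 and 47.4% to 50.8% of those within 1 kb of a gene start. Over the 4 libraries these calls were 34.4% and 35.03% methylated in Dnmt1 KO and 80.2% in both controls. Without them the autosomal levels were 23.3% and 23.9% against 70.7% and 70.8%, and chromosome 2, at 28.3% and 28.7% in Dnmt1 KO with them, fell to 23.3% and 23.9%. Class levels below leave these cytosines out unless stated. Levels of windows, genes and flanking contexts keep them, and pairs and runs of calls use cytosines with 1 call in the library.

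The chromosomes kept similar levels apart from X. Autosomes ranged from 21.9% on chromosome 7 to 24.5% on chromosome 13 in Dnmt1 KO replicate 1, and from 22.9% to 25.04% on the same chromosomes in replicate 2. The X chromosome was at 18.6% and 18.99% in Dnmt1 KO and at 71.9% and 71.6% in control. Among 100 kb windows with 113 to 534 CpGs, X windows were above autosomal ones in Dnmt1 KO, with medians of 20% (45 windows) and 14.9% (4752 windows). From 891 to 1144 CpGs the order was the reverse, 21.1% (78 windows) and 27.3% (4738 windows), and the X windows were also lower in control there, at 65% and 73.9%. Windows of 1 library are not replicates, and these medians are given as a description. CpG number still varied within each group, and whether the minimum of calls shaped the order on X was not tested.

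From isolated CpGs up to 7 to 9 CpGs, residual methylation rose with the number of CpGs nearby while control methylation stayed nearly level. Isolated CpGs, with no other CpG within 250 bp, were methylated in 16.3% and 16.9% of Dnmt1 KO calls, though in 74.99% and 75.4% of control calls. The Dnmt1 KO level rose to 28.4% and 28.8% at 7 to 9 CpGs, while the control level was 75.5% and 75.6% there. Over this range the control libraries stayed between 74.99% and 77.3%.

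**Figure D1:**
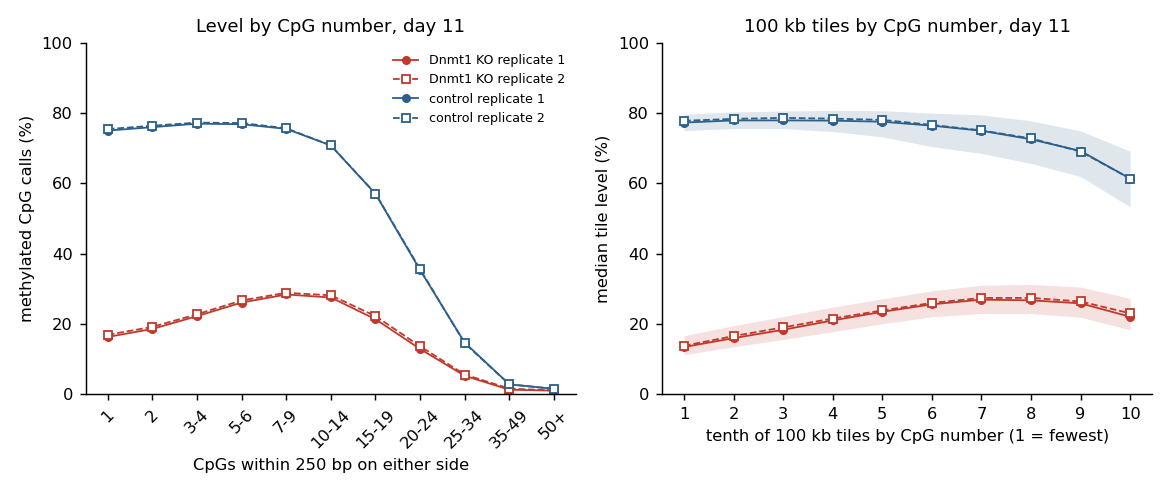
Left, percent of methylated autosomal CpG calls (y axis) by the number of CpGs within 250 bp of the called one, itself included (x axis), with cytosines of over 20 calls left out. Right, the median level of 100 kb windows (y axis) in 10 equal groups by their CpG number (x axis), with the central 50% of windows shaded; each line is 1 of the 4 libraries. In both panels the Dnmt1 KO lines first rise and then fall, from 16.3% to 28.4% and down to 1.02% on the left in replicate 1, while the control lines start flat and fall.

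At higher CpG numbers both genotypes declined. At 15 to 19 CpGs the levels were 21.3% and 22.2% in Dnmt1 KO and 57.0% and 57.1% in control. At 25 to 34 CpGs they were 5.24% and 5.59% against 14.7% and 14.5%. At 50 or more CpGs they were 1.02% and 1.04% against 1.51% in both controls. As a percent of control, the residual level went from 22.1% for isolated CpGs to 37.8% at 7 to 9 CpGs and 68.0% at 50 or more. The last value is a ratio of levels as low as 1.02% and 1.51%. Cytosines left unconverted by bisulfite were neither estimated nor subtracted, so it is not read as better retention. The same rise was present at day 9, with 15.9% and 16.7% at isolated CpGs and 28.6% and 29.3% at 7 to 9, and in the Dnmt1 KO library of day 6 (15.8% and 28.2%).

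CpG islands held little methylation in either genotype. They stood at 2.38% and 2.68% in Dnmt1 KO and at 6.60% and 6.49% in control, a difference of -4.01 points. Shores, the 2 kb on either side of an island, went from 51.6% and 52.0% in control to 15.05% and 15.6% in Dnmt1 KO. The rest of the autosomes went from 76.0% and 76.2% to 25.1% and 25.7%. The differences were -36.5 points in shores and -50.7 in the rest. Shores kept 29.6% of their control level and islands 38.6%, with no overlap of genotypes in any of these classes. The island share is again a ratio of low levels without such a correction.

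Gene bodies kept more than the DNA between genes. Intergenic CpGs were methylated in 22.8% and 23.4% of Dnmt1 KO calls, introns in 26.4% and 27.0%, coding exons in 25.5% and 26.2%, and 3′ untranslated regions in 26.9% and 27.6%. In control intergenic DNA was instead the highest of these, at 75.01% and 75.3%, with 74.5% and 74.8% in introns and 70.2% and 70.5% in coding exons. Within 1 kb of gene starts the levels were 8.04% and 8.56% against 24.7% and 24.05%, and the high-coverage cytosines changed this class most: with them it read 21.9% and 22.0% against 52.1% and 51.7%, so that the difference was -29.95 points with them and -16.1 without. Around gene starts the Dnmt1 KO level was lowest in the last 200 bp upstream, at 5.58% and 6.38%, and reached 26.8% and 27.4% at 20 to 50 kb downstream. It was lower again beyond 100 kb downstream (23.5% and 23.96%), where control stood at 78.2% and 78.6%.

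Gene cover and CpG number are linked along the genome, so sparse CpGs, those with fewer than 10 CpGs within 250 bp, were also taken alone. Over 5 equal groups of 100 kb windows, from that with the least gene cover to that with the most, their level went from 21.04% and 21.6% to 26.6% and 27.1% in Dnmt1 KO. In control it went from 78.2% and 78.7% to 77.5% and 77.8%. The libraries of these 2 groups did not overlap in Dnmt1 KO. CpG number still varies among sparse CpGs, and its part in this difference was not tested.

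In Dnmt1 KO, CpGs with 10 to 99 or with 1000 or more copies were no more methylated than unique ones once the high-coverage cytosines were left out. Copy number was counted as the exact matches of the 42 bases around a CpG in the reference genome. CpGs with 1 copy stood at 23.4% and 23.99% in Dnmt1 KO, those with 10 to 99 copies at 23.4% and 23.9%, and those with 1000 or more at 22.4% and 23.1%. With the high-coverage cytosines kept, the class of 10 to 99 copies read 33.2% and 33.4%, so the comparison depends on leaving them out. Classes of other copy numbers are not given here, and nothing is read for them. Transposon families were not separated, as no repeat annotation was used here. The study reported that IAPs, RLTRs and MMERVK10C kept higher methylation than other transposons, which these copy classes neither show nor contradict.

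Along the genome the residual methylation varied between regions. The 24113 windows of 100 kb with at least 100 calls in every library, of 26398, had medians of 21.9% and 22.5% in Dnmt1 KO and of 75.7% and 76.0% in control. In replicate 1 the middle 50% of windows spanned 16.8% to 27.2%, and in replicate 2 they spanned 17.4% to 27.7%. No window of either Dnmt1 KO library exceeded 50%, whereas 97.3% and 97.1% of control windows did. The spread over windows was 7.23 and 7.16 points (SD) in Dnmt1 KO, where independent sampling of the calls would give 2.55 and 2.51. Control windows spread more, with SDs of 9.18 and 9.41 points against 2.58 and 2.62 by sampling.

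**Figure D2:**
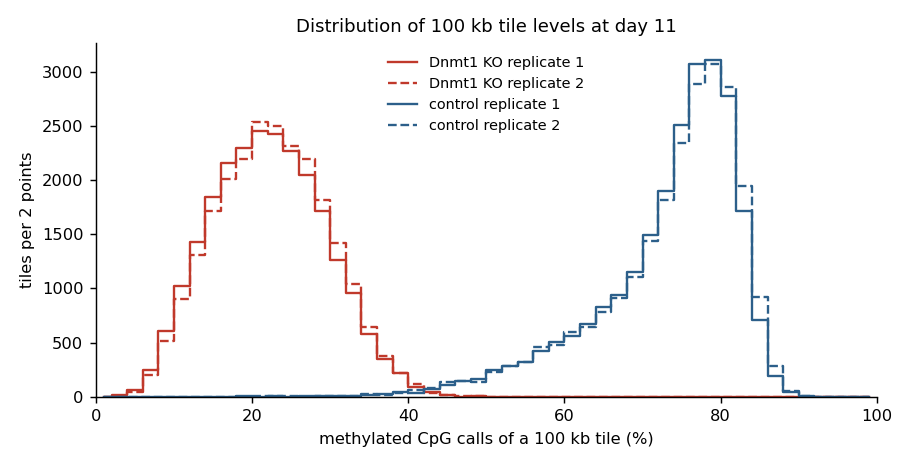
Number of 100 kb windows (y axis, per 2 points of methylation) against the percent of methylated CpG calls of the window (x axis) in each of the 4 day 11 libraries. The Dnmt1 KO windows form 1 broad peak with its highest point between 20% and 22%, and the control windows a peak between 78% and 80% with a tail toward lower levels.

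By the quasi-binomial model with limma's moderation of the spread, 24112 of the 24113 windows (100% to 3 digits) were lower in Dnmt1 KO by at least 10 points at an adjusted p under 0.05. The exception, chr17:39900001-40000000, fell short of the 10 points, had 20947 to 23506 calls per library and was at 1.88% and 2.41% in Dnmt1 KO against 6.30% and 5.14%. In all 24113 windows both Dnmt1 KO libraries lay below both controls. The residual level of a window was in the median 31.8% of its control level, with a 5th percentile of 15.2% and a 95th of 44.3%.

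The order of windows was shared by the Dnmt1 KO libraries but hardly related to the control order. Over the 24113 windows Pearson's r was 0.805 between the Dnmt1 KO replicates and 0.223 between the mean Dnmt1 KO and mean control levels. It was 0.878 between the Dnmt1 KO levels of day 11 and day 9, and 0.855 with the day 6 library. With the number of CpGs in the window, r was 0.417 in Dnmt1 KO and -0.580 in control. Windows are neighbours on chromosomes and share libraries, so these values are descriptions. Over 10 equal groups by CpG number, the median of Dnmt1 KO replicate 1 rose from 13.4% in the first to 26.9% in the seventh and was 22.0% in the last, and that of control replicate 1 went from 77.3% to 74.9% and 61.3%.

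Windows were then set against others with the same control level. For each window the expected level was the mean Dnmt1 KO level of windows whose control level fell into the same 2-point bin, and the test asked whether its own level departed by at least 5 points at an adjusted p under 0.05. Of 24039 windows, 4956 (20.6%) lay above and 4476 (18.6%) below their background. Windows above had a median Dnmt1 KO level of 31.3% and a median excess of 8.41 points, and those below a level of 13.3% and an excess of -9.31 points, while control medians were 77.5% and 77.3%. The libraries of days 6 and 9 took no part in the choice. In them the windows above were again above in 98.1% (day 9, median 7.96 points) and 97.7% (day 6, median 7.72 points), and the windows below were again below in 98.5% and 97.5%, where 50.3% of all windows were above on each day.

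The windows above and below differed in what they contained. Those above held a median of 1032 CpGs, a GC content of 44.1% and a gene cover of 67.4%. Those below held 495 CpGs, a GC content of 37.6% and a gene cover of 0.0825%, and all tested windows 778 CpGs, 41.4% and 35.8%. When the background was matched on CpG number as well as control level, 974 windows lay above and 626 below. Leaving out either Dnmt1 KO library, so that 1 library stood for the group, gave fewer windows above and below, and the reason was not tested. X had the fewest above, 6.0% of its tested windows, and 10.4% below, while chromosomes 9 and 11 had 10.2% and 10.4% below. X also had the fewest windows tested, 517. Windows under the minimum of calls were left out, and whether that or the number of calls shaped the shares on X was not tested. Chromosomes 17, 13 and 9 had the most above, at 26.9%, 26.8% and 26.5%.

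Windows above and below often lay in stretches. Of the windows above, 72.6% adjoined another above, and of those below 77.0% adjoined another below, where 20.6% and 18.6% of all windows were called and a window has a neighbour on either side. The longest stretch above was chr7:141900001-144500000, 26 windows with a median Dnmt1 KO level of 33.6% that hold Dock1, Ptpre, Mki67, Mgmt and Ebf3. Stretches of 20 windows lay at chr17:66500001-68500000, with Ptprm and Lama1, and at chr8:120100001-122100000, with Plcg2 and Cdh13. The longest stretch below was chr1:26500001-29700000, 32 windows with a median of 11.4% in Dnmt1 KO and 77.4% in control that hold 4 genes with clone or model names. The stretch chr14:95000001-98100000, 31 windows with a median of 11.5%, holds Klhl1, and chr10:100200001-102700000, 25 windows with a median of 12.5%, holds Nts and Alx1.

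The largest excess lay inside Wwox, the gene of a WW domain oxidoreductase (ENSMUSG00000004637.9, chr8:116963555-117876608, plus strand). The window chr8:117000001-117100000 was at 49.7% and 49.1% in Dnmt1 KO and at 84.7% in both controls. Its Dnmt1 KO level was 23.3 points above its background of 26.0% (adjusted p = 1.32e-09, test against the background with Benjamini-Hochberg adjustment). That test set the pooled Dnmt1 KO share against the background, taken as fixed, with the moderated spread of the quasi-binomial fit. The excess was 14.9 points at day 9 and 23.4 at day 6. The window chr8:117300001-117400000, the next in rank and also within Wwox, was at 48.2% and 43.4% against 83.6% and 79.8%, an excess of 22.0 points. Every window from 116900001 to 117900000, which spans the gene, was above its background, with Dnmt1 KO levels between 34.5% and 49.7%. The excess did not end at the gene, since the next 4 windows, from 117900001 to 118300000, were also called above, by 8.30, 13.6, 8.65 and 10.1 points, and the window after them was not. The window of the third largest excess, chr2:76500001-76600000, holds Fkbp7, Plekha3 and part of Ttn, the gene of the muscle protein titin. It was at 43.3% and 43.1% against 74.2% and 79.7%, 21.5 points above background.

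The largest deficits lay in CpG-poor DNA. They rested on 128 to 179 calls per library, against 634 to 997 in the 3 windows of largest excess. The window chr3:71200001-71300000 overlaps no annotated gene, the nearest coding gene, Otol1, being 1367371 bp away. It was at 6.98% and 4.65% in Dnmt1 KO and 83.2% and 78.3% in control, with an excess of -18.2 points (adjusted p = 8.66e-05, same test). The window chr3:76400001-76500000 in Fstl5, a follistatin-like gene, was at 2.96% and 6.25% against 63.6% and 64.7% (excess -18.2). The window chr6:45000001-45100000, over the start of Cntnap2, a neuronal adhesion gene, was at 5.48% and 4.97% against 66.7% and 71.1% (excess -17.9). At days 9 and 6 the excess of these 3 windows was -14.2 and -11.3, -15.8 and -14.3, and -18.2 and -17.4 points, in the order given, so the first was smaller by more than 1.5 times at day 6. For all 6 named windows the sign of the excess was kept when any library was left out, and the values then ranged from 19.2 to 25.3 points above and from -19.5 to -16.8 points below.

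**Figure D3:**
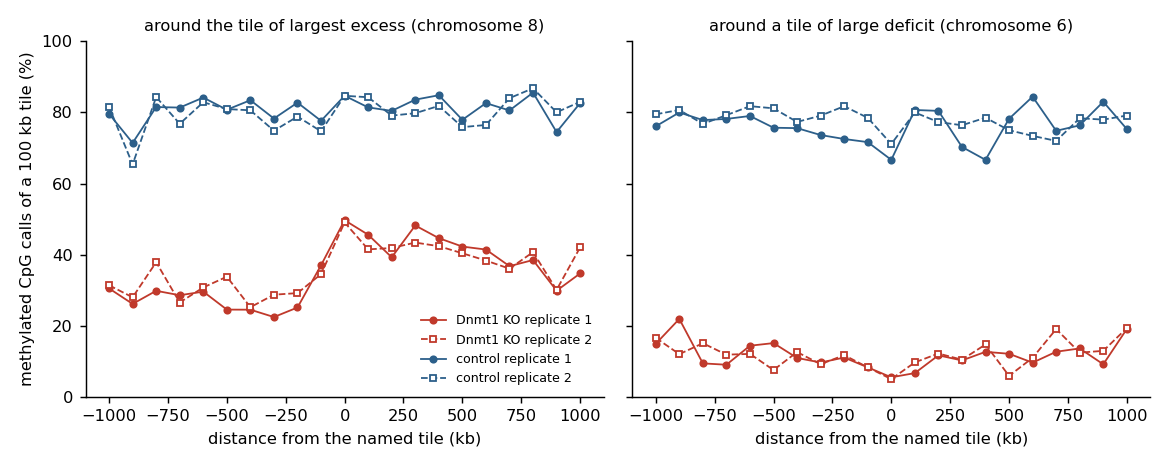
Percent of methylated CpG calls of 100 kb windows (y axis) by distance in kb from a named window (x axis), for the window of largest excess in Wwox on chromosome 8 (left) and for the window in Cntnap2 on chromosome 6 (right), in each of the 4 day 11 libraries. Dnmt1 KO rises to 49.7% and 49.1% at the left centre and falls to 5.48% and 4.97% at the right centre, while control stays above 65% in both.

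A stretch of 200 bases from each of these 2 loci shows the contrast in sequence. Each is the one of its window with the most calls among those with at least 2 calls in every library, and both lie in introns. CpGs are in capitals, sequences are of the NCBIM37 plus strand.
Wwox intron, chr8:117027657-117027856: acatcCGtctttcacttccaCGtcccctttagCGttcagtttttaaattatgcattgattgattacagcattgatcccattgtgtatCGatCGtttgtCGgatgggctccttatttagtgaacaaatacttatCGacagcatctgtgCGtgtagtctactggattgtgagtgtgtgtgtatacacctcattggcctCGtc
Cntnap2 intron, chr6:45072774-45072973: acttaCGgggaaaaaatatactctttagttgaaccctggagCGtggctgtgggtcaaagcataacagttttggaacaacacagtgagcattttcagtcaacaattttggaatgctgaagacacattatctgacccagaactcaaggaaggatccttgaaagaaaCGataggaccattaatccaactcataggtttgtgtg
The first holds 9 CpGs and the second 3. In the first, 8 of 10 and 7 of 11 calls were methylated in Dnmt1 KO and 9 of 12 and 8 of 8 in control. In the second, 1 of 4 and 1 of 8 were methylated in Dnmt1 KO and 5 of 5 and 3 of 3 in control. The genotypes overlapped in the first, at 80% and 63.6% in Dnmt1 KO and 75% and 100% in control. The second was at 25% and 12.5% in Dnmt1 KO, and both stretches were above the Dnmt1 KO levels of their windows. At these call numbers the stretches do not give the level of the windows and are not tested by themselves.

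In windows of 10 kb the picture was the same at lower precision. Of 263909 windows, 209699 had at least 10 calls in each library, and 206807 (98.6%) passed the test, 206805 with less methylation in Dnmt1 KO. The medians were 22.2% and 23.1% in Dnmt1 KO and 77.3% and 77.8% in control. In Dnmt1 KO, 16.2% and 14.8% of windows were under 10%, and 2.03% and 2.02% were over 50%. The median window had 33.8 calls per library, so the level of a single 10 kb window is imprecise.

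The 2 windows called higher in Dnmt1 KO (0.000954% of those tested) each depended on single libraries. The window chr3:95460001-95470000, which contains Mcl1, an anti-apoptotic BCL2 family gene, had 22.1% of 77 calls and 1.67% of 60 calls methylated in Dnmt1 KO and 2.92% and 2.86% in control. Without Dnmt1 KO replicate 1 its difference was -1.23 points. The window chrX:11380001-11390000, 223866 bp from Bcor, had 60% of 20 and 23.8% of 21 calls methylated in Dnmt1 KO and 4.48% of 67 and 25% of 40 in control, so that the genotypes overlapped. Its difference of 29.3 points was 11.7 without Dnmt1 KO replicate 1 and 16.5 without control replicate 1, and neither passed the test.

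The bases beside a CpG went with large differences in residual methylation. Among sparse autosomal CpGs, read on the strand of the called cytosine and with the CpG in capitals, the contexts cCGc, aCGc and gCGc were highest of 16 in Dnmt1 KO, at 31.5% and 31.7%, 30.02% and 30.4%, and 29.3% and 29.5%. The contexts tCGt, tCGa and gCGa were lowest, at 19.99% and 20.4%, 20.4% and 21.4%, and 20.8% and 21.4%. Control libraries ranged from 73.0% to 81.7% over the 16 contexts. Taken singly, a C after the CpG went with 29.6% and 29.9% and a T with 22.5% and 22.9%. A T at the second position before the CpG went with 28.6% and 29.1%, and an A there with 20.3% and 20.9%.

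With 2 bases on either side the contexts spanned 31.1 points in Dnmt1 KO. The highest were taCGcg at 44.0% and 43.1%, taCGgc at 43.1% and 43.6% and tcCGgc at 42.1% and 42.2%. The lowest were ggCGgg at 12.4% and 12.6%, aaCGtt at 12.4% and 12.6% and atCGtt at 12.5% and 13.0%. In control these 6 stood at 85.5% and 86.4%, 82.5% and 82.0%, 81.0% and 81.1%, 68.9% and 69.7%, 62.8% and 63.4%, and 71.0% and 71.4%, in the order given. Control spanned 26.4 points, from 63.1% to 89.5%, but with a smaller SD over contexts, 4.09 points against 6.58. The fewest calls of any context were 1412 and 1486 in the Dnmt1 KO libraries. Over these contexts r was 0.996 between the Dnmt1 KO replicates, 0.992 with day 9, 0.985 with day 6 and 0.569 with control, and contexts share libraries and base composition, so these are descriptions.

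The strands of a CpG differed more in Dnmt1 KO than in control. Each context on one strand faces its reverse complement on the other, which gives 120 pairs of different contexts that lie in the same double-stranded CpGs. In Dnmt1 KO the median gap between paired contexts was 6.88 points and in control 1.199. For tcCGcc the levels were 37.9% and 37.5%, and for ggCGga, its partner on the other strand, 15.9% and 16.03%. In control the same contexts stood at 78.2% and 78.5% and at 76.8% and 77.2%. For ccCGcc and its partner ggCGgg the levels were 34.02% and 34.2% against 12.4% and 12.6% in Dnmt1 KO, and 75.05% and 76.2% against 68.9% and 69.7% in control, which was the largest control gap (6.32 points).

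**Figure D4:**
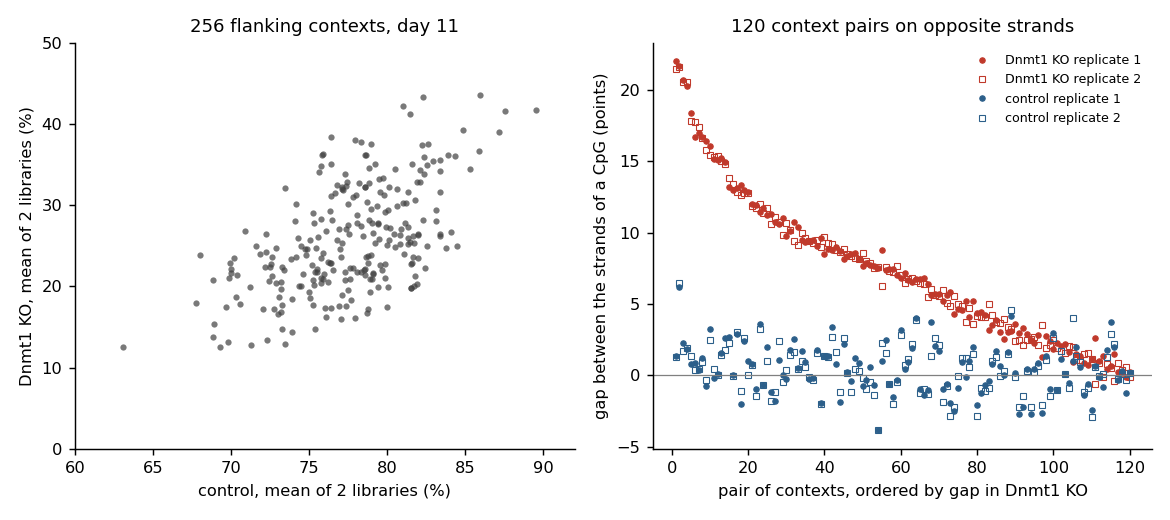
Left, the mean level of the 2 Dnmt1 KO libraries (y axis) against that of the 2 control libraries (x axis) in percent for each context of 2 bases on either side of the CpG. Right, the gap in points between a context and its partner on the other strand (y axis) for 120 pairs ordered by the Dnmt1 KO gap (x axis), with 1 symbol per library. Gaps in Dnmt1 KO reach 22.03 and 21.6 points in the 2 libraries, while the largest mean gap in control is 6.32 points.

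A gap of 5 points or more in both libraries was present in 72 of the 120 pairs in Dnmt1 KO and in 1 pair in control. The gaps were reproduced between replicates in both genotypes, with r of 0.989 in Dnmt1 KO and 0.930 in control over the pairs.

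The 2 strands of a CpG were seldom both methylated in Dnmt1 KO. Sparse CpGs with 1 call on each strand numbered 407456 and 437614 in Dnmt1 KO and 469572 and 448309 in control. Both calls were methylated at 7.20% and 7.53% of them in Dnmt1 KO and at 60.3% and 60.7% in control. Among CpGs with at least 1 methylated call, 82.7% and 82.3% had it on 1 strand only in Dnmt1 KO, and 34.7% and 34.4% in control. Independent strands at the same levels would give both methylated at 5.95% and 6.24% and 1 methylated at 36.9% and 37.5% of CpGs in Dnmt1 KO, near the 34.4% and 34.9% found, and 58.2% and 58.7% both in control. The minus strand was methylated in 29.7% and 30.03% of calls where the plus strand was methylated and in 22.8% and 23.2% where it was not, a gap of 6.84 and 6.85 points, against 11.4 and 11.18 points in control. The strands of a CpG come from different reads and in general different cells, so these pairs do not measure half-methylated molecules.

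Calls close together on 1 strand went together far more. In Dnmt1 KO replicate 1, a CpG 1 to 10 bp from a methylated call was methylated in 65.6% of cases, and 1 to 10 bp from an unmethylated call in 15.2%. At 76 to 150 bp these shares were 38.5% and 19.8%, and at 301 to 600 bp 29.9% and 24.99%. The gap fell from 50.4 points to 18.8 and 4.89, and in replicate 2 from 50.6 to 19.2 and 4.92. Control showed gaps of similar size, 53.4, 20.3 and 5.65 points in replicate 1. Neighbouring calls at short distances can come from the same read, which is 1 molecule.

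**Figure D5:**
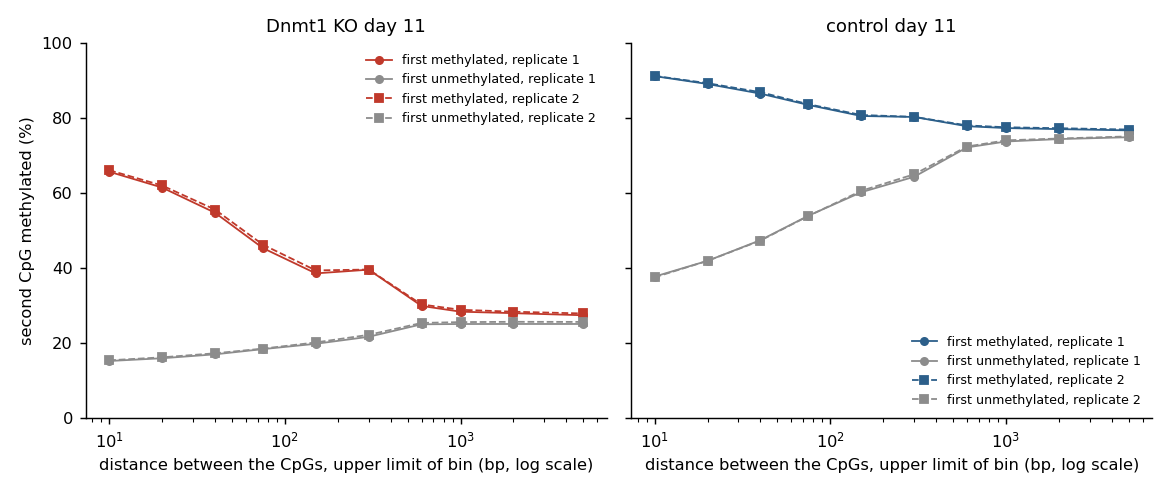
Percent of calls methylated at a second CpG of the same strand (y axis) by its distance from the first (x axis, upper limit of the bin in bp, log scale), where the first call was methylated (coloured) or unmethylated (grey), in Dnmt1 KO (left) and control (right), with 1 line per library. In Dnmt1 KO replicate 1 the lines run from 65.6% and 15.2% at 1 to 10 bp to 27.4% and 25.1% at 2001 to 5000 bp.

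Some short stretches of DNA were fully methylated in Dnmt1 KO at day 11. Runs of 4 neighbouring CpGs within 40 bp on 1 strand, each with 1 call, numbered 125031 and 128977 in Dnmt1 KO. All 4 were methylated in 6.44% (exact 95% interval 6.31% to 6.58%) and 6.86% (6.72% to 7.0%) of them, where independent calls at the same mean would give 0.0982% and 0.112%. In control 30.7% were fully methylated in both libraries. Outside islands, an alternative chosen after seeing the data, the runs of Dnmt1 KO were fully methylated in 11.21% and 11.7%, unmethylated in 49.2% and 48.7% and mixed in 39.6% of both libraries. Control runs outside islands were fully methylated in 54.0% and 54.7% and mixed in 31.2% and 30.4%. Mixed runs were therefore a larger share in Dnmt1 KO than in control. Fully methylated runs were 14.1 and 13.8 times as frequent in Dnmt1 KO as independent calls would give, against 1.98 times in both controls. The higher mean level of control limits how large this ratio can be there. It therefore does not compare the genotypes in how far neighbouring calls go together. The ratio depends on the class of CpGs, since in Dnmt1 KO it was 65.6 and 61.01 over all runs and 9.38 and 9.199 among sparse CpGs.

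Gene bodies lost methylation almost without exception. Of 18927 gene bodies with at least 10 calls in each library, taken from 1 kb past the start to the end of the gene, 18304 (96.7%) passed the test, each with less methylation in Dnmt1 KO. In 98.3% both Dnmt1 KO libraries lay below both controls. Their medians were 24.4% in Dnmt1 KO and 74.5% in control. Of the genes of the DNA methylation machinery and its readers, 14 of 14 were called lower. Dnmt3a, a template-free methyltransferase, stood at 22.0% and 28.9% against 58.7% and 58.9%. Dnmt3b stood at 28.8% and 27.3% against 69.8% and 73.3%, and Tet1, which oxidises methyl groups, at 18.3% and 18.9% against 50% and 49.3%. Uhrf1, the partner of DNMT1, stood at 19.1% and 16.8% against 75.9% and 64.96%.

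The other lists are read against the 96.7% of all bodies called lower. Germline genes were lower in 17 of 17 bodies tested, among them Ddx4, an RNA helicase of germ cells, at 22.4% and 23.7% against 73.8% and 76.4%. The list of small RNA and transposon control genes was lower in 7 of 7. It counts 5 genes of small RNA production and the imprinted non-coding genes Mirg and Rian, among the 5 being Dicer1, which cuts double-stranded RNA, at 35.1% and 33.7% against 78.4% and 79.3%. Imprinted genes were lower in 9 of 10 maternally and 2 of 2 paternally methylated ones, trophoblast genes in 7 of 9 and germ layer genes in 7 of 8. Pluripotency genes were lower in 9 of 15 bodies, and their median control level was 27.4%, against 74.5% over all bodies. Esrrb, a nuclear receptor, stood at 21.3% and 24.4% against 53.9% and 48.7%, and Nanog, a homeobox factor, at 3.13% and 6.52% against 41.9% and 31.4%. Pou5f1, another core factor, stood at 0% in both Dnmt1 KO libraries and at 0% and 15% in control, without passing the test. Dppa3 stood at 10.9% and 25.4% in Dnmt1 KO and at 7.14% and 10.7% in control, so that both Dnmt1 KO libraries were above both controls, a difference of 10.1 points that was not called.

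Gene starts could be judged far less well. Of 18718 starts with at least 5 calls in each library within 1 kb, 2867 (15.3%) were called, 2865 lower and 2 (0.0107%) higher, while in 57.5% both Dnmt1 KO libraries lay below both controls. The 2 higher starts, named here after their values were seen, were those of Mcl1, an inhibitor of apoptosis, and Tshz1, a zinc finger gene. Each rested on 1 Dnmt1 KO library, as Mcl1 stood at 58.6% of 29 calls and 0% of 14 against 0.926% and 1.28%, and Tshz1 at 0% of 5 and 21.6% of 37 against 1.64% and 0.917%. The medians were 3.23% in Dnmt1 KO and 13.5% in control. The count fell to 1562 with limma on log odds and to 591 with edgeR's quasi-likelihood test, and without Dnmt1 KO replicate 1 or 2 it was 200 or 198. The fit took the spread of all starts from a common trend, so a call at 1 start can rest on libraries that differ from each other.

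Imprinted starts ranged from large losses to no difference. H19, the non-coding RNA of the paternally methylated domain, had 0 methylated of 27 and 32 calls in Dnmt1 KO and 78.9% and 90.0% in control, a difference of -82.8 points (adjusted p = 1.38e-05). Taken as 3 divided by the calls, 0 methylated calls at these depths allow a level of up to 11.11% and 9.38%. Over all starts of the lists a value of 0% allows between 2.8% and 60% by this rule, depending on the calls. The rule is rough at few calls and takes the calls as independent. Of maternally methylated starts 5 of 11 tested were lower. That is beside 15.3% of all starts and 2213 of the 5588 starts with a control level of at least 50%, while the control median of these 11 was 34.4% and that of all starts 13.5%. Airn stood at 6.06% and 0% against 96.0% and 83.3%, Plagl1 at 10.8% and 0% against 64.3% and 67.7%, and Zrsr1 at 0% in both against 40.7% and 29.4%. Peg3 stood at 3.64% and 0% against 24.2% and 68.6%. Without control replicate 2 its difference was -22.8 points (adjusted p = 0.0505) and without Dnmt1 KO replicate 2 -43.4 points (adjusted p = 0.0626), so the call did not hold. Peg10, at 0.952% and 29.3% against 0% and 61.5%, was called lower. Without control replicate 2 its difference was 8.90 points, and without Dnmt1 KO replicate 1 it was -8.83 points and not called. Nnat, at 33.3% and 4.35% against 50% and 43.9%, and Mcts2, at 13.2% and 0% against 13.1% and 5.95%, did not pass. The Nnat start passed with the minimum number of calls halved and with the high-coverage cytosines left out (adjusted p = 0.0497 and 0.0495, against 0.0558), at the same difference of -28.6 points.

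Germline starts were lower in 5 of 14 tested. Their control median was 46.9%, so the 2213 of 5588 starts with control at 50% or more are nearer to them than the 15.3% of all, and no excess is read from the count. These were Mael, Mov10l1, Slc25a31, Taf7l and Tex101, of which Taf7l, a germ cell TFIID subunit, went from 100% and 93.8% to 13.3% and 10%. The 4 germline starts with the most calls, Dazl, Stk31, Sycp1 and Tdrkh, did not pass. Stk31 stood at 13.04% and 13.95% against 25.8% and 52.6%, Sycp1 at 27.8% and 0% against 52.5% and 43.1%, and Tdrkh at 25% and 2.0% against 41.7% and 29.4%. Dazl, an RNA-binding protein of germ cells, stood at 23.5% and 16.7% in Dnmt1 KO and 48.5% and 12.2% in control, so that its genotypes overlapped.

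The other lists had median start levels of 0.526% to 2.83% in Dnmt1 KO. In control the medians went from 3.45% for small RNA genes to 20.8% for trophoblast genes, against 13.5% over all starts. The counts called lower in these lists lay near or under the 15.3% of all starts, and nothing is read from them. Some starts with higher control levels were not called. Plet1 stood at 0% and 46.2% against 87.5% and 50%. Hand1 stood at 46.2% and 19.2% against 43.75% and 30%, and Dnmt3l at 33.3% and 25% against 85.7% and 78.6%. Pluripotency starts were lower in 2 of 15, Dppa3 and Utf1. Dppa3, which protects methylation in the early embryo, stood at 0% and 2.94% against 34.2% and 5.26%, and Utf1, a chromatin factor, at 0% in both against 28.1% and 11.4%. Sox2, Klf2 and Klf4 were at or under 3.54% in all 4 libraries. Sall4 stood at 0% and 2.94% against 17.4% and 10% without passing. DNA methylation genes were lower at 1 of 10 starts, Dnmt3a, at 0% in both against 63.6% and 0%, so that the libraries overlapped. Germ layer genes were lower at 1 of 8, the heart factor Nkx2-5, at 12.5% and 2.94% against 38.9% and 81.8%. The start of Dnmt1 itself stood at 1.47% and 4.17% against 20% and 5.88%, and that of Uhrf1 at 0% and 4.26% against 7.41% and 10.4%, neither passing. Mbd1, a reader of methylated CpGs, stood at 8.0% and 0% against 23.4% and 30.2% and did not pass either. Of 7 trophoblast and 5 small RNA starts the quasi-binomial test called 0, while 2 and 1 of them had an unadjusted p under 0.05, and the other tools were not counted by list. Trim28, a corepressor that protects imprints, was at 0% in all 4 libraries, over 50 to 66 calls. Cdx2 and Eomes, which direct trophoblast development, stood at 0% and 2.94% and at 3.33% and 0% in Dnmt1 KO, and at 7.69% and 2.13% and at 0% and 2.17% in control. Tead4 stood at 0% and 1.79% against 18.97% and 22.4% (adjusted p = 0.0542) and passed only with the minimum number of calls halved (0.0469), of 11 alternatives run, at the same difference of -19.3 points. Ascl2, a trophoblast factor, stood at 1.92% and 0% against 7.41% and 0%. Among germ layer genes, Neurog1, a neural factor, stood at 0% in both against 6.38% and 10.7%. The genotypes overlapped at Foxa2, an endoderm factor (2.17% and 2.63% against 4.35% and 0%), at Gsc (11.8% and 0% against 1.59% and 17.6%) and at Mixl1 (9.46% and 14.3% against 24% and 6.67%), and none of these passed. Dgcr8 and Drosha, which form the complex that cuts primary microRNAs, were at or under 3.57% in all 4 libraries, Ago2, which binds small RNAs, at or under 2.56%, and Dicer1 at or under 6.59%.

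The cell type label could be looked at only through methylation. Starts of embryonic stem cell markers were low in both genotypes for Pou5f1 and Sox2, while Nanog stood at 4.55% and 0% against 21.9% and 20% and Zfp42 at 0% and 8.11% against 0% and 29.4%. Of feeder fibroblast markers, Col1a1 and Vim were at or under 6.38% in all 4 libraries, and Thy1 stood at 7.69% and 0% against 28% and 14.7%, so that neither kind of marker had only low starts. Over gene bodies the control median was 22.3% for the 6 stem cell markers tested, 58.2% for 3 feeder markers and 47.2% for 3 trophoblast markers, against 74.5% over all bodies. Methylation of these genes does not measure their expression, so the label was not settled by it. The 40 CpGs of Dnmt1 with 0 calls are the only measure of undeleted cells here. They were chosen for that value, so they set no limit on such cells, whose part in the residual level was not tested.

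Day 11 was then compared with day 9, the nearest day with 2 libraries per genotype. Over 23806 windows of 100 kb the median Dnmt1 KO level was 22.3% at day 11 and 22.5% at day 9. The control median was 76.0% and 80.3%, and the median difference -50.6 and -55.2 points. In the quasi-binomial model of the series, with its spread taken from groups of 2 libraries, 0 windows were called for a change in genotype difference between the days. A call needed an adjusted p under 0.05 and a change of at least 10 points. The median change was 4.49 points, under that limit, so the 0 does not show that the days were alike. An unadjusted p under 0.05 was found in 3085 of the 23806 windows. A variant with a replicate block was also run and did call windows, as given in the last paragraph. No tool outside these models was run on this contrast.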

How the data were processed

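Whole-genome bisulfite sequencing was analysed from tables of counts and percent methylation per cytosine that the authors deposited, made with Bismark 0.12.3 per the submitters' processing notes, on the NCBIM37 build; by the study's methods reads were paired and deduplicated. The deposited counts of methylated and unmethylated calls were summed, and the deposited percent column served only as a check of them. CpGs were read from the NCBIM37 reference and annotated with its gene models. Islands were windows of 500 bp with a GC content of 55% and an observed to expected CpG ratio of 0.65. Tiles of 10 kb and 100 kb needed 10 and 100 calls in each library, gene starts 5 and gene bodies 10.

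Differences were tested with a quasi-binomial model whose spread was moderated with limma 3.58.1 (squeezeVar) and adjusted by Benjamini-Hochberg over all features. Calls needed an adjusted p under 0.05 and 10 points, or 5 points for the departure from tiles with the same control level. The departure was tested against a background taken as fixed, with the spread of that model. For 10 kb tiles and gene starts the moderation took the spread wholly from its trend. Alternatives used limma on log odds, edgeR 4.0.16, other coverage limits, all 18 libraries and each library left out. Programs ran in R 4.3.3 and Python 3.11.15 and were tested on simulated data. Members and lists were chosen with earlier results of these data known. Named were the 3 largest excesses and deficits, all 10 kb tiles called higher, the 3 highest and lowest contexts, and the 4 starts of each list with the most calls. Gene bodies, stretches and other starts were named after their values were seen.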

Additional observations from a re-analysis of the deposited data

How the results depend on the processing

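Class differences moved by more than 1 SD in 9 cases, from values that keep the cytosines with over 20 calls. As a mean of 100 kb tiles the genome-wide difference was -51.0 points. With limits of 15 and 30 CpGs, in place of 10 and 25, the differences were -50.3, -33.6 and -1.90 points for sparse, intermediate and dense CpGs, in place of -51.9, -41.5 and -3.93. With the looser island definition they were -22.6 points for islands, -43.9 for shores and -52.1 for the rest. Without cytosines of over 20 calls they were -39.5 points for intermediate CpGs and -16.1 for gene starts. The range over contexts was 33.4 points over all autosomal CpGs and 31.0 to 31.7 with 1 library left out. Fully methylated runs made up 6.65% on average, 11.5% outside islands, and, among sparse CpGs, 11.7% for runs of 3 within 75 bp and 7.38% for runs of 4 within 150 bp, all 3 alternatives chosen after seeing the data.

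Doubling the coverage minimum left 129171 called 10 kb tiles of 131467 tested. Called gene starts numbered 1562 with limma, 591 with edgeR, 4317 and 728 with the minimum halved and doubled, and 198 to 1399 with 1 library left out. Tiles above and below background numbered 974 and 626 with CpG number matched, 1651 and 1641 with the minimum doubled, 1557 and 1786 at 10 points, and 2598 to 5408 and 2125 to 4795 with 1 library left out. The 10 kb tile at Mcl1 turned to -1.23 points without Dnmt1 KO replicate 1 (range with 1 library left out, -1.23 to 19.2), and Peg10 to 8.90 points without control replicate 2 (range -52.6 to 8.90). For single tiles and starts 394 alternatives kept the side of the threshold, 15 lost it, 3 gained it and 2 reversed; for the summary values 135 alternatives stayed within the limits and 35 did not. The cause was not tested.

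Replicate numbers were not shown to pair the libraries, since the replicate differences of the genotypes correlated at 0.0061 over 100 kb tiles. With the replicate block 9 gene starts were called, and 3 tiles were called as different between days 11 and 9. The block left 206559 of the 10 kb tiles, 24112 of the 100 kb tiles and 18322 gene bodies called. H19, Peg3 and Peg10 were not called with it, at adjusted p of 0.255, 0.255 and 0.278. Gene starts were tested from 5 calls per library, which leaves single levels imprecise.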
